A study of Rattus norvegicus with 6 samples.

Results

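Collagens and extracellular matrix genes were followed in the pancreatic islets of young and ageing rats. The set was defined by name: every gene whose symbol has the form of a collagen chain, which gave 44 genes, and 19 others that encode proteoglycans, matrix glycoproteins, a crosslinking enzyme pair, a protease and its inhibitors, and contractile or surface markers of mesenchymal cells. Of these 63 genes, 32 were matched to a probe of the array through their RefSeq mRNA accession, and 31 of the 32 were above background often enough to be tested, among 11190 named genes tested in all. The tested genes comprised 15 collagens and 16 of the other genes, each measured by a single probe. No probe was matched to 29 collagens, including Col1a1, Col4a2, Col18a1 and every chain of collagen VI, nor to Acta2 and Lox, so these are not analysed here.

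Islets came from male Wistar rats aged 3 months or 12 months, with 3 rats and 3 arrays at each age. They were obtained by collagenase digestion of the pancreas, and total RNA of the whole islets was labelled with a single dye and hybridised to a rat mRNA and long non-coding RNA array. No treatment, transgene or mutation distinguished the groups. The sources used here describe culture of isolated islets without saying whether it came before the RNA was taken.

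The extracellular matrix of an islet consists of a basement membrane, built on laminins and collagen IV around its capillaries, and of an interstitial capsule of fibrillar collagens that carry small proteoglycans and glycoproteins. In the pancreas, fibroblasts and stellate cells make most of the fibrillar matrix, while endothelial cells and pericytes contribute to the basement membrane. Matrix also enters an islet preparation with the exocrine tissue that collagenase leaves attached. In RNA from whole islets, fewer cells of a type and less RNA per cell cannot be told apart.

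All signals below are quantile-normalised log2 intensities, and differences are 12-month minus 3-month values from a limma fit across all probes, with p-values adjusted by the Benjamini–Hochberg method over all probes tested. The study's threshold refers to a fold difference above 2 with an unadjusted p under 0.05. At 12 months 61.2% ± 2.61 of probes were well above background, and at 3 months 75.7% ± 2.32 (SD, n = 3). The negative control spots read higher at 12 months, with medians of 90.5 ± 0.866 against 30.2 ± 0.764 (linear intensity, SD, n = 3). The arrays were scanned in 2 sessions, none of which held both ages, so age and scan cannot be told apart in any difference below. Among the matrix genes, 23 of 31 were above background on all 6 arrays. A further 6 were above background on fewer arrays at 12 months than at 3 months, and 0 on fewer at 3 months.

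The fibrillar collagen Col3a1, the matrix glycoproteins Fbn1 and Postn, and the small proteoglycans Dcn and Lum had higher signals in islets of 12-month-old rats, by 2.63- to 4.17-fold, with no overlap between ages. Col4a1, a chain of the basement membrane, and the proteoglycan Bgn had lower signals with no overlap, by 1.84- and 1.72-fold. No matrix gene reached an adjusted p under 0.05 in the limma fit (0 of 31), whereas 7.86% of all named genes did. The smallest adjusted p was 0.0522, for Fbn1, and 8 of 31 matrix genes had an unadjusted p under 0.05, where 30.6% of all named genes did. The differences of the matrix genes ran in both directions, with 17 positive and 14 negative values, where 56.5% of all named genes had a negative one. Their median was 0.16, beside −0.13 for all named genes and −0.09 for named genes above background on all 6 arrays.

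At the study's threshold, 6 of 31 matrix genes were higher at 12 months (Col3a1, Col5a1, Fbn1, Postn, Dcn and Lum), against 9.80% of all named genes. Col8a1 alone was lower, against 9.64% of all named genes. Among the 23 matrix genes above background on every array, 5 were higher and 1 was lower, where the background was 10.1% and 7.65%. The signals of the 2 ages did not overlap for 6 genes with higher values at 12 months (Col3a1, Fbn1, Postn, Dcn, Lum and Des) and for 2 with lower values (Col4a1 and Bgn). Across all named genes 17.1% were separated upwards and 22.2% downwards. With 3 arrays against 3, an exact two-sided permutation test cannot go below p = 0.1, the value that Col3a1, Fbn1, Postn, Dcn, Lum, Col4a1 and Bgn each had. It was not computed for Des, which lacked the value of 1 array.

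**Figure D1:**
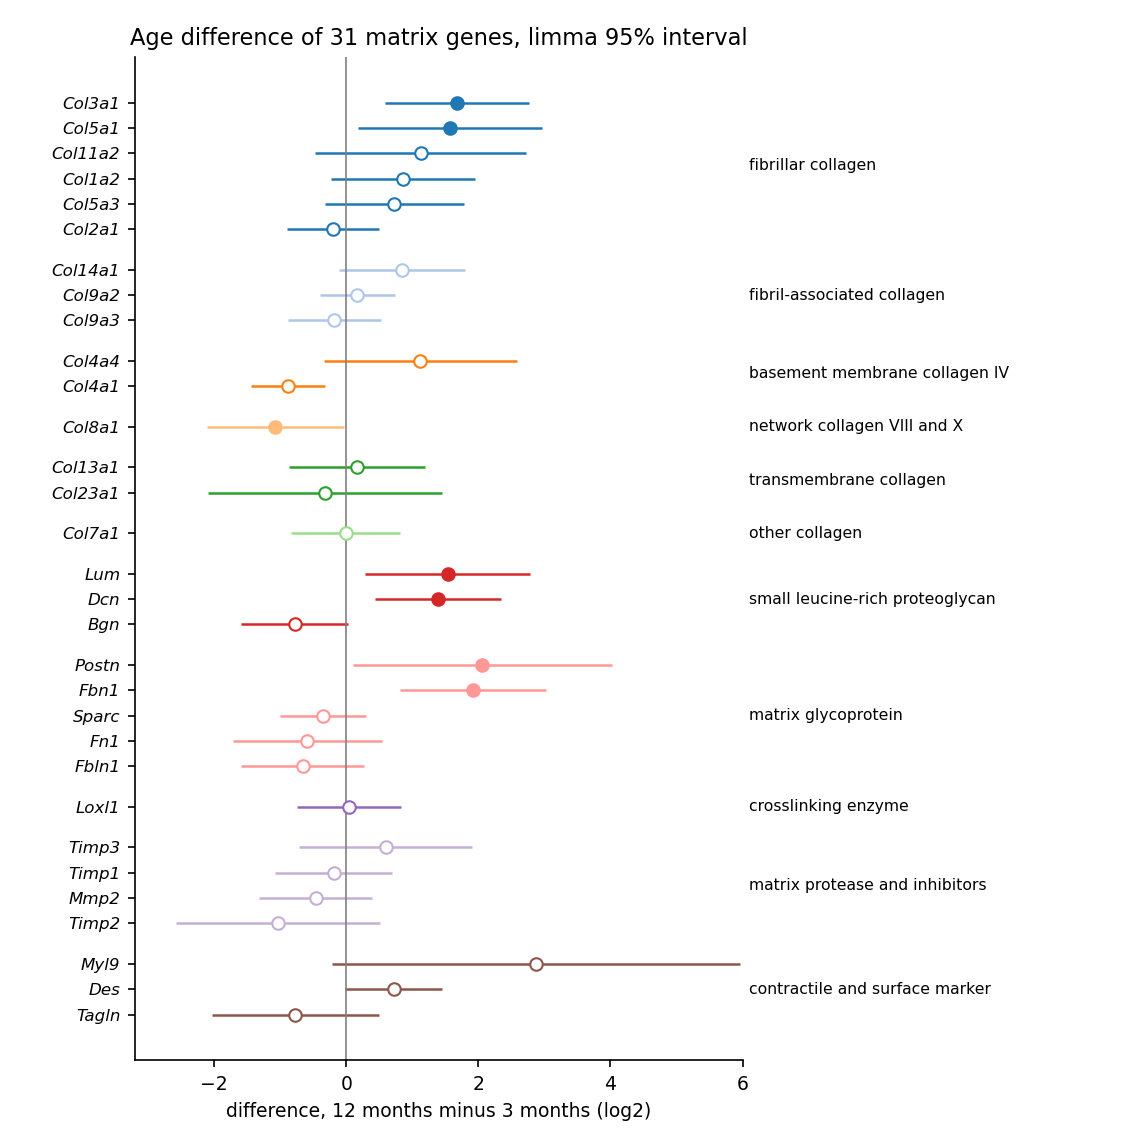
Difference in log2 signal between 12-month-old and 3-month-old rats for the 31 matrix genes tested, with the 95% interval of the limma fit as a horizontal bar. The largest positive values belong to Myl9 (2.87), Postn (2.06) and Fbn1 (1.92), the most negative to Col8a1 (−1.08).

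Fibrillar collagens are the rope-forming chains of interstitial matrix, and 6 of the 11 genes of this class were tested. Their differences ranged from −0.20 for Col2a1 to 1.68 for Col3a1, with a median of 0.99 and 5 of 6 values positive, but only 3 of the 6 were above background on all arrays. The median was 0.59 with normexp background correction, and 0.27 with 3 of 6 positive when this was combined with a shift to a common 75th percentile. Col3a1, the single chain of collagen III, gave 15.39, 14.04 and 13.94 on the 12-month arrays and 12.51, 13.29 and 12.52 on the 3-month arrays. Every 12-month value lay above every 3-month value. The means were 14.46 ± 0.81 and 12.78 ± 0.45 (SD, n = 3). The difference was 1.68 with an SE of 0.46, which is 3.21-fold (limma adjusted p = 0.067).

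Col5a1, a chain of collagen V that regulates fibril diameter, was dim. It gave 6.95, 4.74 and 5.70 at 12 months and 3.68, 4.78 and 4.22 at 3 months, so the ages overlapped, and it was above background on 2 arrays of each age. The difference was 1.57 with an SE of 0.59 (limma adjusted p = 0.123), and it was −0.01 with normexp and the percentile shift together. Col1a2, a chain of collagen I, gave 12.99, 11.88 and 11.41 at 12 months and 10.74, 11.37 and 11.59 at 3 months. These values overlapped, and the difference of 0.86, with an SE of 0.46, did not pass either threshold (limma adjusted p = 0.232). The partner chain of collagen I, Col1a1, had no matched probe. Of the remaining fibrillar genes, Col11a2, above background on 2 of the 12-month arrays, and Col5a3 had differences of 1.13 and 0.72 with overlapping ages. That of Col11a2 was −0.14 with normexp and the percentile shift together.

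Fibril-associated collagens sit on the surface of fibrils, and transmembrane collagens span the cell membrane. The 3 fibril-associated genes tested had differences from −0.18 to 0.84, and the 2 transmembrane genes −0.32 and 0.16. None of these 5 passed either threshold, and the ages overlapped in each. Col23a1 was uneven among the young rats, with 14.21, 12.07 and 15.16 at 3 months around 12-month values of 13.30, 13.89 and 13.29. The anchoring fibril collagen Col7a1 had a difference of −0.01 and was above background on 1 array at 12 months and 3 at 3 months.

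Collagen IV forms the sheet of the basement membrane. Col4a1 gave 13.12, 12.75 and 12.65 at 12 months and 13.70, 13.64 and 13.83 at 3 months, and all 12-month values lay below all 3-month values. The difference was −0.88, with an SE of 0.24 and a limma adjusted p of 0.0655, short of the study's fold. The other chain tested, Col4a4, was near background, with a difference of 1.12 and overlapping ages. Col8a1, a short-chain collagen of vessel walls, gave 10.59, 10.81 and 11.83 at 12 months and 11.63, 12.08 and 12.75 at 3 months. The highest 12-month value lay above the lowest 3-month value. The difference was −1.08 with an SE of 0.44, or 2.11-fold lower (limma adjusted p = 0.144).

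**Figure D2:**
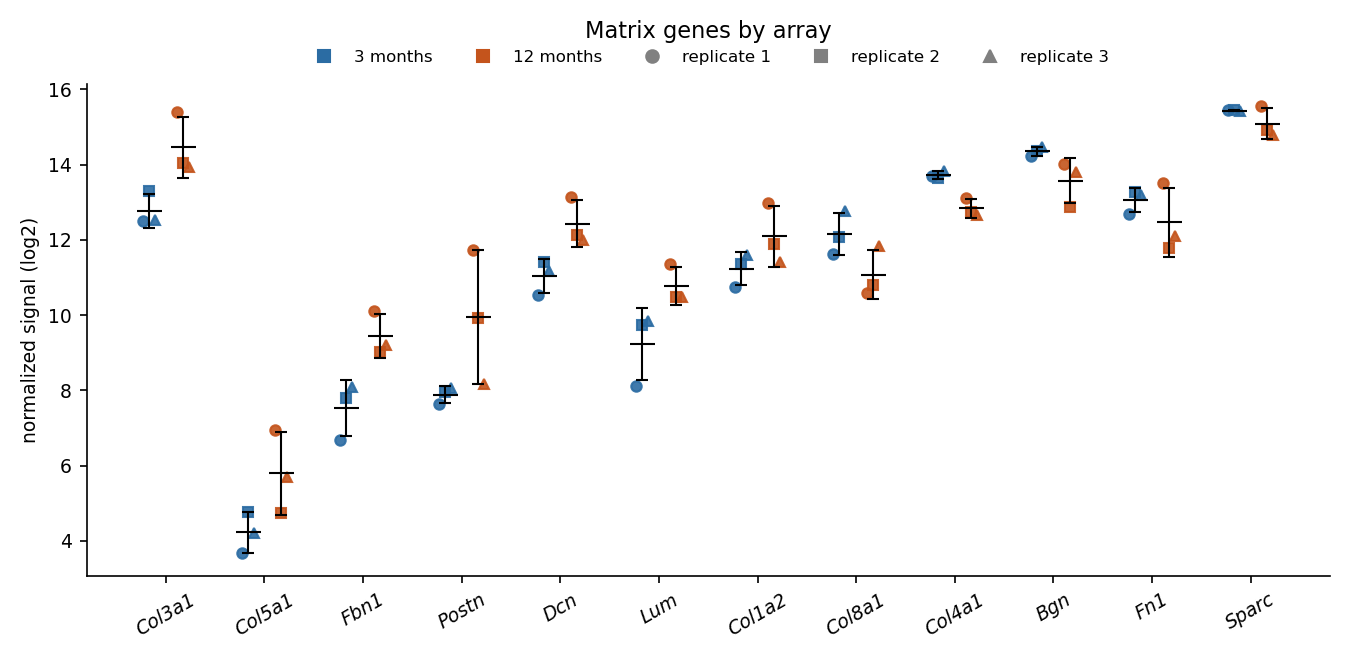
Normalised log2 signal of 12 matrix genes on each array. Symbols mark the replicate number, colours the age, and black bars the mean and SD of 3 arrays. For Col3a1, Fbn1, Postn, Dcn and Lum the 12-month points lie above all 3-month points, and for Col4a1 and Bgn below them. Postn spreads from 8.17 to 11.74 at 12 months.

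The 3 small leucine-rich proteoglycans, which bind collagen fibrils and growth factors, did not run in 1 direction. Dcn (decorin) gave 13.14, 12.14 and 12.00 at 12 months and 10.52, 11.40 and 11.18 at 3 months. The ages were separate, with a difference of 1.39 and an SE of 0.40, or 2.63-fold higher (limma adjusted p = 0.0734). Lum (lumican) gave 11.36, 10.47 and 10.48 at 12 months and 8.13, 9.74 and 9.85 at 3 months. They were again separate, although 3-month replicate 1 lay well below the other young rats. Its difference was 1.53 with an SE of 0.52, or 2.89-fold higher (limma adjusted p = 0.104). Bgn (biglycan), the closest relative of decorin, gave 14.01, 12.88 and 13.81 at 12 months and 14.22, 14.37 and 14.46 at 3 months. It was lower in every 12-month-old rat, with a difference of −0.78, an SE of 0.34 and a limma adjusted p of 0.165.

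Among the 5 matrix glycoproteins, 2 were higher at the study's threshold and 3 had negative differences that passed no threshold. Fbn1 (fibrillin 1), the backbone of microfibrils, gave 10.11, 9.01 and 9.22 at 12 months and 6.69, 7.80 and 8.09 at 3 months. The lowest 12-month value exceeded the highest 3-month value. Its difference was 1.92 with an SE of 0.46, or 3.77-fold higher (limma adjusted p = 0.0522).

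Postn (periostin), a glycoprotein secreted by activated fibroblasts, gave 11.74, 9.94 and 8.17 at 12 months and 7.64, 7.95 and 8.07 at 3 months. The young rats were tight and the older rats were not, with SDs of 0.22 and 1.79, and 12-month replicate 3 lay only just above the highest young rat. The difference was 2.06 with an SE of 0.82, or 4.17-fold higher (limma adjusted p = 0.14). Fn1 (fibronectin), which links integrins to the matrix, gave 13.50, 11.80 and 12.09 at 12 months and 12.68, 13.28 and 13.19 at 3 months. Its highest and its lowest value both came from 12-month-old rats, and the difference was −0.59 with an SE of 0.47 (limma adjusted p = 0.409). Sparc (osteonectin), a collagen-binding protein, gave 15.55, 14.93 and 14.78 at 12 months and 15.44, 15.45 and 15.41 at 3 months. The young rats differed by an SD of 0.02 only, the smallest of any matrix gene, and the difference was −0.35 with an SE of 0.27 (limma adjusted p = 0.399). Fbln1 (fibulin 1) had a difference of −0.66 with overlapping ages.

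The genes that crosslink, cut or protect the matrix did not pass either threshold. Loxl1, a crosslinking enzyme, had a difference of 0.04. Mmp2 (gelatinase A), a metalloproteinase that cleaves collagen IV and denatured collagen, gave 10.74, 9.77 and 9.53 at 12 months and 10.28, 10.54 and 10.61 at 3 months. Timp1, a metalloproteinase inhibitor, gave 13.46, 12.10 and 12.50 at 12 months and 12.88, 12.78 and 12.97 at 3 months. Both genes overlapped between ages, with 12-month replicate 1 above every young rat and replicates 2 and 3 below. The differences were −0.46 with an SE of 0.36 for Mmp2 (limma adjusted p = 0.39) and −0.19 with an SE of 0.37 for Timp1 (limma adjusted p = 0.738). The limma 95% intervals ran from −1.32 to 0.39 and from −1.08 to 0.70, so that a 2-fold lower signal at 12 months lay within both. Timp3, the inhibitor that binds the matrix itself, had a difference of 0.59. Timp2 was above background on all 3-month arrays and on no 12-month array, and its signal was too close to background for a fold to be given.

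Of the contractile and surface genes, Des (desmin), an intermediate filament protein of muscle and stellate cells, had a difference of 0.72 with an SE of 0.30 (limma adjusted p = 0.159), without overlap. Its value on 3-month replicate 3 was missing because its spots there were marked as outliers, so this fit used 2 young rats. Tagln (transgelin), a smooth muscle protein, had a difference of −0.78 with overlapping ages. Myl9, a myosin light chain, had the largest difference of all matrix genes, 2.87, together with the largest spread. Its 12-month values were 8.62, 5.03 and 10.68, so that replicate 2 lay among the young rats at 5.63, 5.33 and 4.75 (SE 1.30, limma adjusted p = 0.175). Thy1, a surface protein of fibroblasts, gave 4.25, 2.77 and 4.30 at 12 months and 3.76, 3.52 and 2.35 at 3 months. It was above background on 1 of the 3-month arrays and none of the 12-month arrays and was not tested.

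Genes of related function thus differed in opposite directions within the same arrays. Log2 ratios within an array, for gene pairs chosen after their values were seen, describe this without the between-array scaling and are given with no test. The ratio of Dcn to Bgn was higher at 12 months by 2.17 with quantile normalisation and 2.35 with none. The ratio of Col3a1 to Col4a1 was higher by 2.56 and 2.55, and that of Fbn1 to Fn1 by 2.51 and 2.65. Col3a1 and Col1a2, both fibrillar, were closer, with a ratio higher by 0.82 and 0.67. None of these ratios overlapped between ages on either scale. For Dcn to Bgn and Col3a1 to Col4a1 this was fixed on the quantile scale by the choice of pairs. There the first gene was separated upwards and the second downwards.

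**Figure D3:**
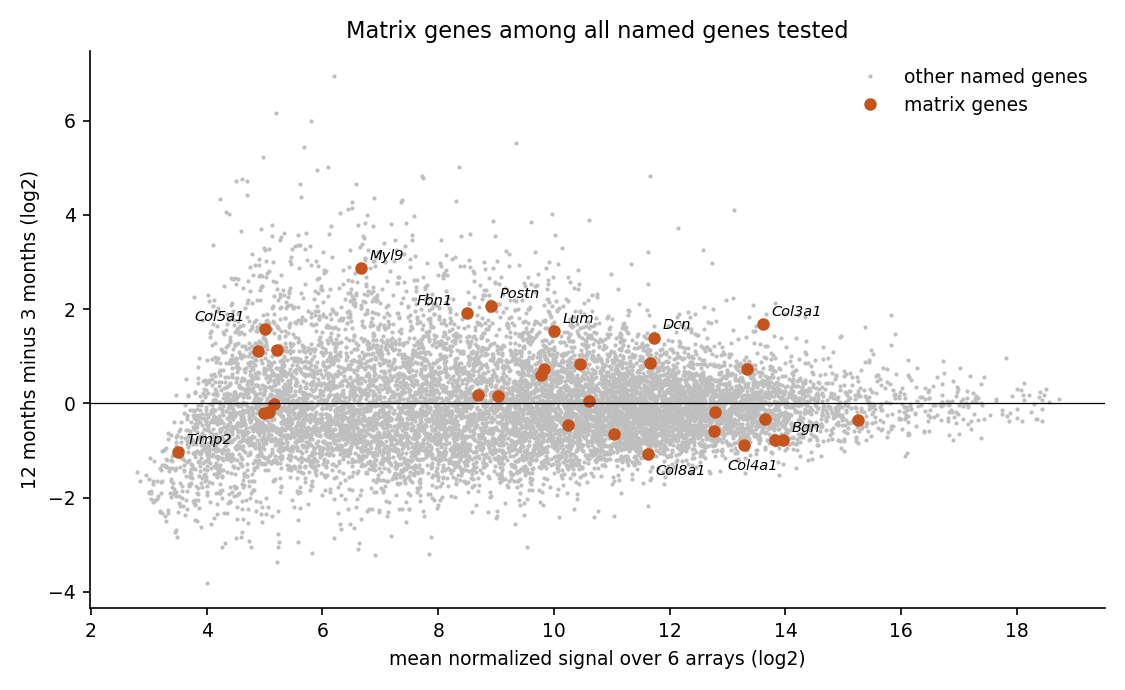
Difference in log2 signal between ages against the mean log2 signal over 6 arrays, for the named genes tested in grey and the 31 matrix genes in colour. Matrix genes lie on both sides of 0 at low and at high signal, with Fbn1, Postn, Col3a1, Lum and Dcn above and Col8a1, Col4a1 and Bgn below.

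The matrix genes varied more among rats than other genes did, and 12-month replicate 1 stood at the upper end. The median SD over the matrix genes was 0.60 at 12 months and 0.45 at 3 months, beside 0.33 and 0.38 over all named genes. Replicate 1 had the highest signal of the 12-month arrays for 20 of 31 matrix genes, among them Col3a1, Col1a2, Dcn, Lum, Fbn1, Fn1, Postn and Sparc. Its median deviation from the mean of its age was 0.46 over the matrix genes and −0.002 over all named genes. The signals of the stellate cell and fibroblast markers, summed on the linear scale, were highest in the same rat, 45832 against 22142 and 20384 in the other 12-month-old rats and 21741 to 34739 in the young rats. This sum follows its brightest marker, Vim. Among the 12-month-old rats, the same rat was also highest for macrophage and leukocyte, endothelial, pericyte, Schwann cell, duct and red blood cell markers. For macrophage and leukocyte markers the sums were 79772 against 22931 and 35425. It was not highest for acinar, mesothelial, beta cell or other endocrine markers. The part of these markers in the matrix signals was not tested.

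Col3a1, Dcn and Fbn1 stayed at the study's threshold whichever array was left out, with differences of at least 1.21, 1.03 and 1.5. Without 12-month replicate 1, the differences of Postn, Lum and Col5a1 were 1.16, 1.24 and 0.99 and that of Col8a1 −0.84, and all 4 left the threshold. In the same fit Col4a1 (−1.02), Fn1 (−1.11), Tagln (−1.27) and Bgn (−1.0) entered it on the lower side. This left 3 matrix genes higher and 4 lower, where 8.53% and 8.68% of all named genes were. Without 12-month replicate 2, Col5a1, Fbn1 and Myl9 had limma adjusted p-values under 0.05, where 10.2% of all named genes did. The difference of Myl9 was 4.41. Postn kept the threshold only without 12-month replicate 3, where its difference was 2.95, and left it without any of the 5 others.

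**Figure D4:**
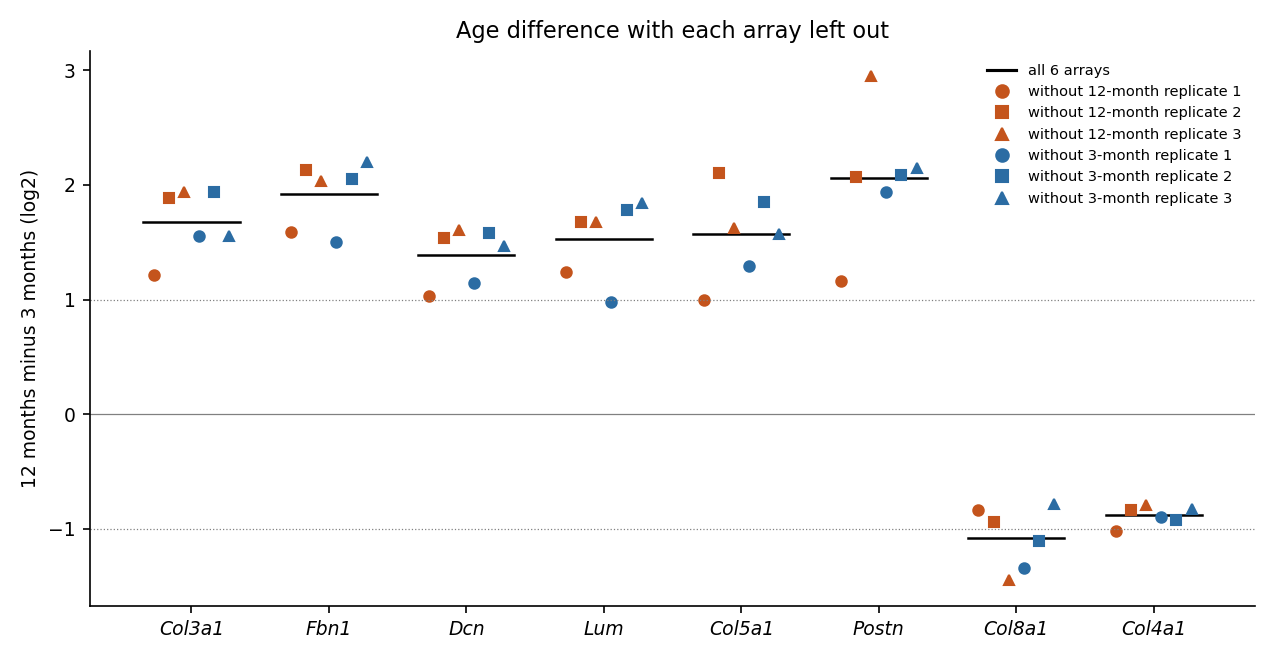
Difference in log2 signal between ages for 8 matrix genes with all 6 arrays (black line) and with each array left out in turn (symbols). Dotted lines mark a 2-fold difference. Col3a1, Fbn1 and Dcn stay above the upper dotted line throughout, and Postn ranges from 1.16 to 2.95.

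The machinery around these genes was examined through 5 further lists, to be read against the 9.80% of named genes that passed the study's threshold upwards, the 9.64% downwards and the 56.5% with a negative difference. At the study's threshold, 1 of 6 laminin, nidogen and basement membrane proteoglycan genes tested was lower and 0 were higher, with a median difference of 0.02. The 1 was Lamb1, a laminin β chain, above background on no 12-month array and at least 2.07-fold lower there (limma adjusted p = 0.0958). Its measured values were 4.38, 4.84 and 2.24 at 12 months and 6.38, 5.40 and 5.91 at 3 months. Of 21 genes of collagen synthesis and processing, 1 was higher and 1 lower, the median was −0.32, and 15 of the 21 differences were negative. P3h3, which belongs to the family of collagen prolyl 3-hydroxylases, fell by 1.23 on the log2 scale (limma adjusted p = 0.0494), from 13.86, 13.67 and 13.89 at 3 months to 12.81, 12.06 and 12.86 at 12 months. It was the only gene of this list with an adjusted p under 0.05.

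Of 26 other proteoglycans and glycoproteins, 3 were lower and 0 higher by the same threshold, with a median of 0.02. These were the microfibril genes Mfap2 (−1.69) and Fbn2 (−1.47) and the collagen-binding proteoglycan Fmod (−1.26), with limma adjusted p-values of 0.093, 0.118 and 0.129. Mfap2 gave 7.34, 8.29 and 7.27 at 12 months and 8.78, 8.72 and 10.48 at 3 months, without overlap. Fbn2 gave 5.95, 7.52 and 6.09 against 8.61, 7.21 and 8.16, and Fmod 10.85, 9.58 and 9.46 against 11.71, 10.54 and 11.43, both with overlapping ages. Fbn2 thus differed in the opposite direction to Fbn1. Of 18 other matrix proteases and inhibitors, 2 were higher and 1 lower, with a median of 0.09. The lower gene was Mmp17, a membrane-anchored metalloproteinase, which fell by 1.22 on the log2 scale, from 9.49, 9.51 and 9.16 at 3 months to 8.30, 7.91 and 8.28 at 12 months (limma adjusted p = 0.0337). Of 15 collagen and matrix receptors, 1 was higher and 0 lower, with a median of 0.16. Sdc2 (syndecan 2), a heparan sulphate proteoglycan of the cell surface, rose by 1.48, from 9.96, 10.13 and 10.42 at 3 months to 11.55, 11.80 and 11.61 at 12 months (limma adjusted p = 0.0197).

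Markers of the cells that could supply matrix did not move as 1 group, and their calls stand beside the same 9.80% and 9.64% of all named genes. The 10 stellate cell and fibroblast markers had a median difference of 0.23, of which 3 were higher past the study's threshold and 0 lower. Pdgfrb, named after its values were seen, rose by 1.68, from 8.74, 9.56 and 8.46 at 3 months to 11.11, 10.31 and 10.38 at 12 months (limma adjusted p = 0.0453). No other marker of this list had an adjusted p under 0.05. Differences were negative for 4 of the 10, Vim, Cxcl12, Pdpn and Gfap, from −0.31 to −0.07, and Pdgfra was at 0.13. Lrat, among the 3 higher, was above background on 1 of the 12-month arrays and 2 of the 3-month arrays. The 7 pericyte and smooth muscle markers tested had a median of 0.42, with 3 higher and 2 lower, and their summed linear signal was 3400 to 5028 at 12 months and 5415 to 6262 at 3 months. The 7 endothelial markers had a median of −0.76, with 1 higher and 3 lower. Cdh5, among the 3 lower, was above background on no 12-month array. The summed endothelial signal was 31616 to 53319 at 12 months and 57241 to 75359 at 3 months, without overlap. The endothelial sum follows its brightest marker, Plvap (means of 15.14 at 12 months and 15.73 at 3 months). The pericyte and smooth muscle sum mixes markers that differed in both directions. Its brightest, Cspg4, had means of 10.35 and 11.27, Cnn1 8.82 and 10.66, and Abcc9 9.54 and 6.72. At an adjusted p under 0.05, 1 pericyte and smooth muscle marker was higher and 2 were lower, and 1 endothelial marker was lower, where 7.86% of all named genes were called. Beside the lower signals of Col4a1, Col8a1 and Bgn, the part of endothelial markers was not tested.

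The 6 Schwann cell markers tested were all lower in mean, with a median of −1.15, and Cdh19 and Erbb3 were above background on no array. The 8 macrophage and leukocyte markers had a median of −0.29, with Cd163 above background on no array and a summed signal of 22931 to 79772 at 12 months against 28736 to 81478 at 3 months. Medians were 0.08 for 10 acinar, 0.05 for 5 duct, 0.21 for 3 mesothelial and −0.64 for 5 red blood cell markers. The samples expressed 8 beta cell markers and 10 markers of other endocrine cells, all above background on at least 1 array, with median differences of 1.22 and 0.28. Acinar markers were also bright, with a summed linear signal of 1639240 to 2678610 at 12 months and 1794400 to 2480670 at 3 months. Beta cell markers summed to 1052590 to 1198040 and 829016 to 970490, so exocrine RNA was present in the samples of both ages. The part of these lists in the matrix differences was not tested.

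**Figure D5:**
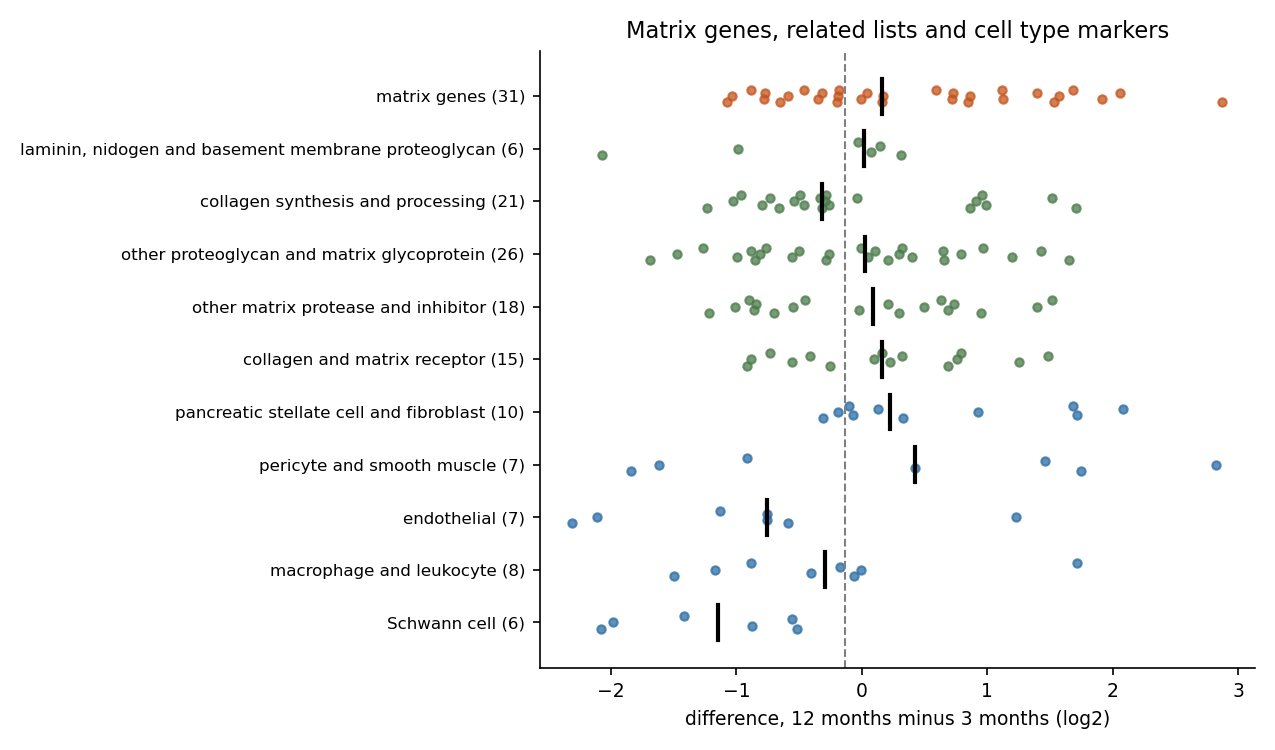
Differences in log2 signal between ages for each tested gene of the matrix set, of 5 related lists and of 5 lists of cell type markers, with the number tested in parentheses. Black bars are medians and the dashed line is the median of all named genes (−0.13). The matrix genes spread on both sides of that line, and the Schwann cell markers lie below 0.

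Promoter sequence was available from RefSeq (build GRCr8) for 20 of the 31 tested matrix genes, as windows of 250 bases before to 50 after the annotated start, and Col3a1 and Dcn were not among them. The letters TATAAA, searched on both strands, occurred in 3 of the 20, Postn, Col1a2 and Col13a1, and in 14.3% of all 27457 windows. The matches of Postn, the gene with the largest difference among those at the study's threshold, and of Col1a2 are shown for comparison, with the motif in capitals. They begin 44 and 170 bases before the annotated start, at chr2:140678005-140678034 and chr4:33518375-33518404, both on the plus strand.
Postn: agcccagagctcTATAAAttcagctctcta
Col1a2: aaacttttcccaTATAAAtagggcaggtct
Of the 4 genes with a window that were higher at the study's threshold, 1 held the motif. CCAAT occurred in 5 of the 20 windows against 37.7% of all windows, GGGCGG in 11 against 34.9%, and the CArG box of smooth muscle genes in 0 against 1.64%. A match describes the letters only.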

How the data were processed

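Islet RNA of male Wistar rats aged 3 or 12 months (3 each) was measured on 1-colour arrays. The authors deposited scanner intensities, which Agilent Feature Extraction 11.0.1.1 had background-corrected per the file headers, and a table of normalised log2 values. Processed intensities were converted to log2, averaged over the spots of a probe not marked as outliers, and quantile normalised. Probes well above background on at least 3 of 6 arrays were kept. Ages were compared for 17941 probes by lmFit and eBayes of limma 3.58.1 in R 4.3.3, without a block, with Benjamini–Hochberg adjustment over all probes. The procedure was tested on simulated data. Probes were named by matching RefSeq accessions to the GRCr8 gene table (14274 of 15323 mRNA probes), and the brightest probe represented a gene. No spot was saturated (0). Precision is limited by the number of arrays, and p-values refer to the spread between these rats.

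Members, roles, related lists and cell type lists were chosen with earlier results of these data known. Values on each array were given for genes at an adjusted p under 0.05 or at the study's threshold and for a fixed set of well-known matrix genes (Col1a1, Col1a2, Col3a1, Col4a1, Col4a2, Col18a1, Fn1, Sparc, Dcn, Mmp2, Timp1, Acta2 and Thy1), and of the related lists for genes at an adjusted p under 0.05 or, failing that, for up to 3 at the study's threshold. Pdgfrb, Bgn, Myl9 and Col23a1 fell outside this rule. A probe above background on no array of an age received a bound only, computed against the lowest signal well above background on each array. It stayed in the counts and medians of its list. The alternatives comprised shifting the arrays to 1 shared 75th percentile, normexp (offset 50, on median spot signals) in place of the background correction, the authors' table (r of at least 0.99963 with the values here, 30 matrix genes), other filters, variance models and array weights, a replicate block (numbers 1 and 2 stand in the labels of both ages; the third pair was formed by elimination), the methods' t-test, a paired t-test, which is the test the study names for its lists of changed mRNAs, the 4 arrays whose descriptions end alike, another rule for the probe of a gene, and each array left out. Normexp combined with the percentile shift was added after seeing the data.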

Additional observations from a re-analysis of the deposited data

How the results depend on the processing

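Col3a1, Dcn and Fbn1 were at the study's threshold in 19 of 20 alternatives, the exception being the paired t-test, which the study names for its lists of changed mRNAs. Col8a1, Lum and Postn were at it in 15, 14 and 9 of 20, and Col5a1 in 7 of 19. The number of matrix genes with an adjusted p under 0.05 was 0 in the reported fit, 2 with the 75th percentile shift, with normexp and with probes above background on all 6 arrays (of all named genes 9.03%, 11.1% and 11.9%), 1 without a filter (9.64%), 4 with an intensity trend and robust variances (11.6%), 10 of 31 with array weights (29.7%) and 0 to 3 with 1 array left out (1.08% to 10.2%). The number lower at the study's threshold was 3 with the percentile shift (of all named genes 15.8%) and 2 with array weights (11.8%). It was also 2 with 4 arrays (6.26%) and 0 by the methods' t-test (6.35%). With normexp and the shift together it was 4 (8.45%), and with 1 array left out 0 to 4 (7.84% to 11.4%). The number higher was 11 with array weights (12.6%), 3 by the methods' t-test (7.87%) and 0 by the paired t-test (4.95%). The paired t-test had 1 lower, Col8a1, beside 3.36% of all named genes. Leaving out 1 array, 3 to 8 were higher (8.09% to 12.2%). The median difference was 0.461 with array weights, which gave 12-month replicate 1 a weight of 8.56, −0.14 with normexp and the shift together, and 0.137 to 0.2 with 1 array left out. The percentile shift moved the median of all named genes from −0.13 to −0.34, and the median of the matrix genes relative to it from 0.29 to 0.46. With it, the study's threshold was passed upwards by 7.47% of named genes and downwards by 15.8%.

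The deviations of arrays numbered 1 and 2 from the mean of their age correlated at −0.01 and −0.31. With 3 arrays an age, whose deviations sum to 0, such correlations cannot show whether the rats were paired. The arrays left over, paired only because they remained, correlated at −0.26. With the 2 numbered pairs as a replicate block, 5 matrix genes passed the study's threshold upwards and 2 downwards. Of all named genes, 8.54% and 6.63% did so. With 3 pairs, 3 matrix genes passed it upwards and 1 downwards, beside 9.22% and 8.64% of all named genes. Both fits had 0 adjusted calls among the matrix genes, where 0% and 0.411% of all named genes were called. The medians of the matrix genes were 0.102 and 0.159. With the 2 numbered pairs, Col23a1 (0.45) and Timp3 (−0.22) changed sign.

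Under other settings differences changed sign, among them those of Col5a1, Col11a2 and Col4a4, which had been above 2-fold. Loxl1 was −0.10 with normexp and −0.13 with the shift added, where Col11a2 (−0.14), Col5a1 (−0.0143) and Col4a4 (−0.34) also turned. Array weights turned Sparc (0.0273), Tagln (0.0641), Timp1 (0.46), Fn1 (0.24), Mmp2 (0.12), Col7a1 (0.42) and Col9a3 (0.10), and the 4 arrays turned Col13a1 (−0.10) and Col7a1 (0.24). With 1 array left out, the range was −0.28 to 0.25 for Loxl1, −0.58 to 0.10 for Timp1, −0.29 to 0.40 for Col13a1, −0.27 to 0.20 for Col7a1, −0.35 to 0.00257 for Col2a1, −0.38 to 0.00679 for Col9a3 and −1.19 to 0.35 for Col23a1. The cause was not tested for any of these. A block by scan could not be fitted, because each scan held 1 age, and averaging the probes of a gene left the matrix values as they were, because each had 1 probe. Genes near background, such as Col5a1, Col4a4 and Timp2, are limited by their signal.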
